A study of Mus musculus with 21 samples.

Results

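Ager, Hopx, Rtkn2, Aqp5 and Pdpn are marker genes of the alveolar type 1 cell. These 5 genes were chosen by name and not by their values, and all 5 were present among the 32285 genes of a single-cell RNA sequencing table of mouse lung and melanoma tissue. The question was whether type 1 cells lie among the cells that carry the markers of AT-2 (alveolar type 2) cells, and which other cells supply the 5 transcripts.

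Type 1 cells are thin epithelial cells that line most of the alveolar surface and let gases pass between air and blood. AT-2 cells lie between them, secrete surfactant and can divide and give rise to type 1 cells through a state rich in the keratin Krt8. Ager encodes the receptor for advanced glycation end products, a membrane protein abundant in type 1 cells, and Aqp5 encodes a water channel of type 1 cells and of glands. Hopx encodes a small homeodomain protein that does not bind DNA itself, and Pdpn encodes podoplanin, a membrane glycoprotein of type 1 cells, lymphatic endothelium and many fibroblasts. Rtkn2 is used as a further marker of type 1 cells. Hopx and Pdpn are therefore not type 1 markers outside the epithelium.

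The hosts were mT/mG mice, whose reporter allele Gt(ROSA)26Sor tm4(ACTB-tdTomato,-EGFP) gives every host cell red tdTomato, as no Cre is present. Fragments of MT-ret melanoma were placed under the skin of male and female recipients aged 8 to 10 weeks, the primary tumors were removed, and metastases formed in the lung. Sorted tdTomato+ host cells were in some samples further depleted of CD45+ cells. They form 4 tumor microenvironment (TME) libraries from lung metastasis, 4 TME libraries from primary tumor and 4 libraries from unchallenged lung. The tdTomato- malignant melanoma (MM) cells form 2 libraries from metastasis and 2 from primary tumor. The age of the unchallenged mice and the gate of a given library were not given in the sources used here, and the libraries labelled replicate 1-3 pool 2 mice of metastasis and 3 of primary tumor. All cells had been frozen and thawed before the sort.

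After libraries with identical content were counted once, 100359 cells remained in 16 libraries with between 1777036 and 60339415 UMIs each (unique molecular identifiers, 1 per captured transcript). The median per cell was between 1203 UMIs in primary tumor TME replicate 6 and 5356 UMIs in primary tumor TME replicate 5. Unchallenged lung replicate 6 stood apart with 25966 cells at a median of 1605 UMIs and is given apart where classes are described by library. The libraries shared at most 1.09% of the cell barcodes of the smaller one. The counts of metastasis TME replicate 6 were also filed under a name for melanoma cells, and metastasis TME replicate 5 held 2016 cells in melanoma clusters among its 5166 cells. Levels are given as CPM, the UMIs of a gene scaled to 1000000 UMIs of the cells summed, and a 3′ UMI counts a transcript once whatever its length.

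On the GRCm38 assembly, Ager lies at chr17:34597862-34600936 (plus strand), Aqp5 at chr15:99590782-99594829 (plus strand) and Pdpn at chr4:143267431-143299564 (minus strand), with no other annotated gene over them. Hopx lies at chr5:77086988-77115121 (minus strand) under the antisense gene Hopxos, and Rtkn2 at chr10:67979570-68059740 (plus strand) under the antisense gene Gm16212. The strand setting of the counting was not given beyond the default of the pipeline.

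No group of cells formed around the type 1 genes. Of 24 clusters of all cells, 20 could be named from marker lists, and none of them was led by type 1 markers. The AT-2 cluster held 2223 cells led by Sftpc, Hc, Cxcl15 and Slc34a2. It had all 7 AT-2 markers and 7 of the 17 type 1 markers (the members and 12 further genes) raised, while 8 of the 17 were raised in an RCC (respiratory ciliated cell) cluster and 5 in a BEC (blood endothelial cell) cluster. The 5 members did not share a peak. Summed over all libraries, Ager was highest in the AT-2 class, Hopx in BEC, Rtkn2 in melanoma cells, Pdpn in fibroblasts and Aqp5 in the club and AT-2 classes alike.

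Ager was at 449 CPM in the AT-2 cluster, followed by 46.2 CPM in the club cell cluster and 10.7 CPM in the neutrophil cluster. A UMI of Ager was found in 741 of the 2223 AT-2 cells, which is 33.3% (exact 95% interval 31.4 to 35.3%). The class was not uniform, and the share was 378 of 464 cells in the groups within the class that had the AT-2 markers raised and 363 of 1759 in the rest, as described after the levels by library. Aqp5 was at 180 CPM in the club cluster and 175 CPM in the AT-2 cluster, and at most 15.8 CPM elsewhere. By library, club cells had 192 and 26.0 CPM of Ager in unchallenged lung replicates 5 (51 cells) and 6 (1419 cells), and 103 and 10.3 CPM in metastasis TME replicates 5 (85 cells) and 6 (53 cells). Their Aqp5 was at 210, 132, 280 and 516 CPM in the same order, below the AT-2 class of the same library in unchallenged lung replicate 5 (304 CPM) and metastasis TME replicate 5 (421 CPM) and above it in unchallenged lung replicate 6 (71.5 CPM). Hopx peaked at 1055 CPM in BEC cluster 18 and was at 72.5 CPM in the AT-2 cluster, rank 11 of the 24. Pdpn peaked in 3 fibroblast clusters at 116, 98.8 and 56.4 CPM and reached 3.61 CPM in the AT-2 cluster, from 22 UMIs in 22 cells. Rtkn2 stayed at or below 3.76 CPM in every cluster, and 8 AT-2 cells had a UMI of it (0.360%, exact 95% interval 0.155 to 0.708%). The intervals cover counting error only.

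**Figure D1:**
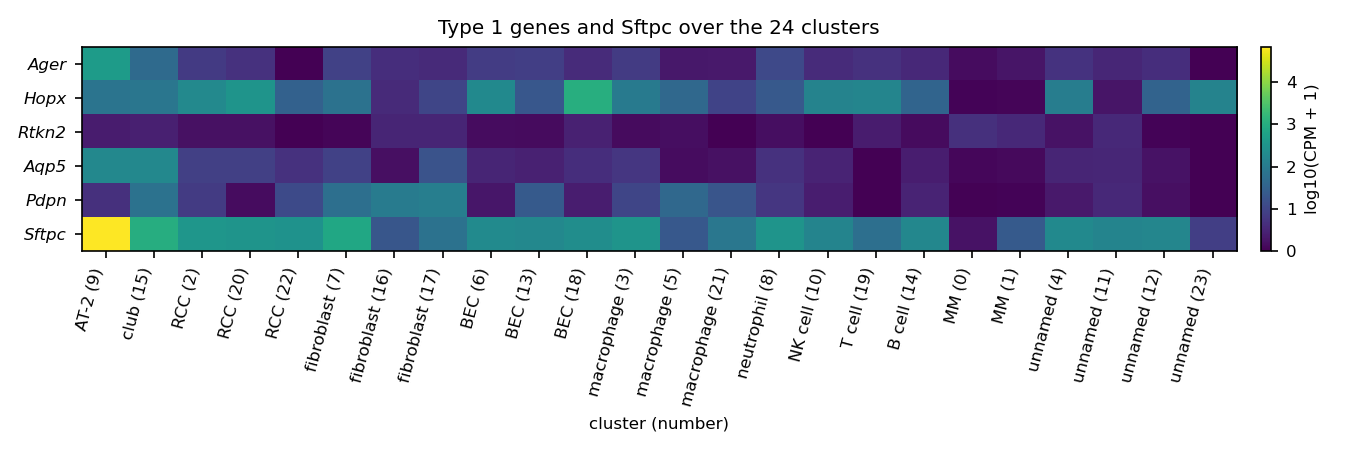
Level of the 5 type 1 genes and of Sftpc in each of the 24 clusters, all libraries summed, as log10(CPM + 1) on a color scale. Ager and Aqp5 are bright in the AT-2 and club columns, Hopx in BEC cluster 18 and the RCC clusters, Pdpn in the fibroblast columns, and Rtkn2 is dark throughout.

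Across the 24 clusters, the profile of Ager on the log2(CPM + 1) scale was most like those of S100g (Pearson r = 0.943), Hc (0.937) and Sfta2 (0.934), among 12036 genes compared. Its correlation with Sftpc was 0.837 and with Aqp5 0.818, but 0.258 with Hopx and 0.182 with Pdpn. The genes most like Hopx were Atp8a1 (0.905), Dyrk2 (0.879) and Nudt16 (0.876), and those most like Pdpn were Igf1 (0.893), Cfb (0.859) and Col14a1 (0.838). Aqp5 was most like Aox3 (0.930), Krt23 (0.924) and Tfcp2l1 (0.910). For Rtkn2 they were Tfap2a (0.815), Gm15880 (0.794) and Igsf9b (0.784), at levels of Rtkn2 near the limit of detection. These correlations describe 24 clusters that share libraries and differ in depth.

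Ager and Aqp5 were the highest members in the AT-2 class of 2 of the 3 libraries that held such cells in number. AT-2 cells were found in numbers of 20 or more in 3 libraries, unchallenged lung replicates 5 (194 cells) and 6 (1801 cells) and metastasis TME replicate 5 (173 cells), all from sequencing run 3. The primary tumor TME libraries held 0 AT-2 cells. In those 3 libraries, Ager was at 815, 182 and 972 CPM, Aqp5 at 304, 71.5 and 421 CPM, and Hopx at 28.3, 105 and 10.3 CPM. Unchallenged lung replicate 6 was thus the lowest for Ager and Aqp5 and the highest for Hopx. Pdpn was at 0.746, 5.73 and 0 CPM in the same order, where 0 UMIs in metastasis TME replicate 5 allow up to 4.43 CPM.

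The AT-2 class of unchallenged lung replicate 6 was made up differently from that of the remaining libraries. When the AT-2 and club clusters were clustered again on their own at a resolution of 0.5, 2 of 15 groups had 5 or more of the 7 AT-2 markers raised over the other epithelial cells. They held 175 of the 194 AT-2 class cells of unchallenged lung replicate 5 and 165 of the 173 of metastasis TME replicate 5, but 73 of the 1801 of replicate 6. The group that held the 165 metastasis cells was led by the melanoma genes Dct, Ptgds, Syt4, Syngr1 and Pmel. Most other AT-2 class cells lay in 3 groups with 0 AT-2 markers raised, of which replicate 6 supplied 668 of 668, 494 of 511 and 476 of 478. Their leading genes were Igkc, Chil3 and Mrc1 (antibody and macrophage genes), Gzma, Cxcl2 and Il1b (lymphocyte and myeloid genes), and Ccdc153, Tmem212 and Foxj1 (genes of ciliated cells). Ptprc, the gene of the leukocyte antigen CD45, was at 1049 CPM in the 1728 replicate 6 cells outside the AT-2 marker groups and at 246 CPM in the 73 cells within them.

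Within the AT-2 marker groups the 3 libraries lay closer together for Ager and Aqp5 than over the whole class. Ager was at 857, 734 and 946 CPM and Aqp5 at 318, 239 and 417 CPM in unchallenged lung replicates 5 and 6 and metastasis TME replicate 5. Hopx was at 25.2 CPM in replicate 6, with replicate 5 just below it, and at 6.31 CPM in metastasis. Outside them, the 1728 cells of replicate 6 had 130 CPM of Ager, 55.6 CPM of Aqp5 and 112 CPM of Hopx. After thinning to 1000 UMIs, an Ager UMI was found in 52.6%, 52.8% and 44.2% of the cells of the marker groups, and a Hopx UMI in 3.43%, 1.39% and 0.613%. Values for the whole class of replicate 6 are therefore mostly those of cells outside the AT-2 marker groups. The groups were formed on the genes of the same cells, so that this is a description with no test, and it was chosen after the data were seen.

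Over the whole class at equal depth, unchallenged lung replicate 6 was the lowest for Ager and Aqp5 and the highest for Hopx. With each cell thinned to 1000 UMIs, which left 194 of 194, 1667 of 1801 and 171 of 173 cells, an Ager UMI was found in 49.5%, 13.7% and 45.0% of the AT-2 cells. Unthinned, at median depths of 6522, 1678 and 3313 UMIs, the shares were 89.7%, 22.4% and 69.4%. The thinned shares with an Aqp5 UMI were 24.7%, 6.36% and 25.7%, and those with a Hopx UMI 4.12%, 10.3% and 1.75%. B cells, which make no surfactant, were set beside the AT-2 cells as a gauge of free RNA. NK and T cells also held Hopx UMIs, and whether those of B cells were free RNA was not tested. In the B cells of unchallenged lung replicates 5 and 6, at medians of 4183 and 1515 UMIs, an Ager UMI was found in 0 of 43 and in 0.288% of cells after thinning, and a Hopx UMI in 4.65% and 6.04%. The Ager share of the AT-2 class therefore lay far above that of B cells in the same libraries, while the Hopx share in replicate 5 did not.

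Sftpc, which encodes surfactant protein C and defines AT-2 cells, was found in 100%, 99.1% and 98.8% of the thinned AT-2 cells of these libraries. Free Sftpc was also common, since 30.2% and 21.6% of the thinned B cells of unchallenged lung replicates 5 and 6 had a UMI of it. For this reason the AT-2 cells were divided by the share of their UMIs that was Sftpc, below 1%, 1 to 5%, and 5% or more.

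Ager was highest in the cells richest in Sftpc. In unchallenged lung replicate 5 it was at 120 CPM in 7 cells below 1% Sftpc, 322 CPM in 22 cells at 1 to 5%, and 889 CPM in 165 cells at 5% or more. In replicate 6 the levels were 78.6 CPM (680 cells), 145 CPM (940 cells) and 573 CPM (181 cells). In metastasis TME replicate 5 they were 789 CPM (14 cells with 40 Ager UMIs), 339 CPM (45 cells) and 1085 CPM (114 cells). The order of the lower ranges was thus turned there in CPM, but 3 of the 14 cells held 15, 12 and 9 of the 40 UMIs. After thinning to 1000 UMIs, an Ager UMI was found in 21.4%, 25.6% and 55.3% of the cells, and the order was not turned. Aqp5 followed the same course in replicate 6, at 34.3, 58.4 and 210 CPM.

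In unchallenged lung replicate 6, surfactant genes differed between the ranges about as much as Ager did. In the richest range, against the poorest, the level was 7.29 times higher for Ager and 6.11 times higher for Aqp5, against 8.14 times for Sftpb, 7.88 times for Sftpd, 8.60 times for Sftpa1, 8.56 times for Slc34a2 (a phosphate transporter) and 5.38 times for Lamp3 (a lamellar body protein). In metastasis TME replicate 5 they parted, at 1.37 times for Ager and 1.68 times for Aqp5. Against this stood 7.12 times for Sftpb, 9.29 times for Sftpa1, 5.93 times for Slc34a2 and 3.47 times for Sftpd. The poorest range there had 14 cells, of which 3 held most of the Ager UMIs. Hopx ran the other way in unchallenged lung replicate 6, at 115, 115 and 43.9 CPM, and its level outside the AT-2 class of that library was 124 CPM. The cells below 1% Sftpc in replicate 6 had 17470 CPM of the club cell gene Scgb1a1, against 2788 CPM in the richest range and 12524 CPM outside the AT-2 class. The part of free RNA and of mixed droplets in these low ranges was not tested, and no doublet caller was run.

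**Figure D2:**
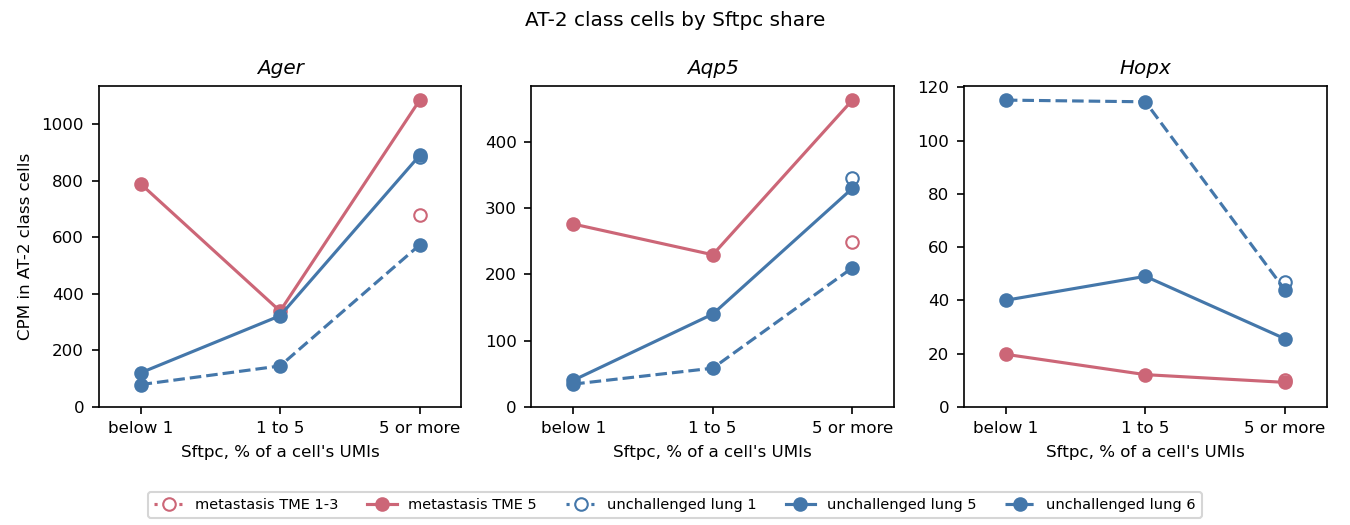
CPM of Ager, Aqp5 and Hopx (linear axes from 0) in AT-2 class cells, by the share of a cell's UMIs that was Sftpc, with 1 line per library and ranges under 5 cells left out. Open symbols mark the libraries with under 20 AT-2 cells, and metastasis TME replicate 5 below 1% rests on 14 cells. In unchallenged lung replicates 5 and 6, Ager and Aqp5 climb to the right, while Hopx is lowest in the richest range.

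Over the whole AT-2 class, Aqp5 was more frequent in single cells with Ager than in those without in all 3 libraries. No test was run on this. Among thinned AT-2 cells of unchallenged lung replicate 5, Aqp5 was present in 29.2% of cells with (28 of 96) and 20.4% without Ager (20 of 98). The shares were 14.0% and 5.14% in replicate 6, and 31.2% (24 of 77) and 21.3% (20 of 94) in metastasis TME replicate 5. In replicate 6, the AT-2 marker groups had more of both genes (Ager 52.8%, Aqp5 23.6%) than the other cells (11.9% and 5.58%). The part of this mixture in the difference was not tested. Hopx was present in 5.21% of cells with and 3.06% without Ager in replicate 5, in 9.65% and 10.4% in replicate 6, and in 2 of 77 and 1 of 94 cells in metastasis TME replicate 5. Of all 424 thinned AT-2 cells with Ager, 423 also had Sftpc and 1 had Pdpn. Of the 1663 without Ager, 1646 had Sftpc and 12 had Pdpn. Sftpc is among the markers that named the class, so that this share cannot tell type 1 from AT-2 cells.

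AT-2 cells with 2 or more of the 5 members made up 17.5% and 3.60% of the thinned cells of unchallenged lung replicates 5 and 6 and 15.2% of metastasis TME replicate 5. The metastasis library lay between the unchallenged lung libraries, of which replicate 6 had 73 of 1801 cells in the AT-2 marker groups, and 1 library against 2 allows no test that could pass (smallest p possible 0.333 by exact permutation). Cells with 3 or more members were rare, with 2, 2 and 1 cells.

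A comparison of the AT-2 class between metastasis and unchallenged lung had 1 library against 2, so that values alone are given. On the log2(CPM + 1) scale, Ager was 1.33 higher in metastasis TME replicate 5 than in the mean of the unchallenged lungs, whose SD was 1.52 (n = 2). Against replicate 5 alone the difference was 0.25, and against replicate 6 alone it was 2.41. In cells at 5% Sftpc or more, a choice made after the data were seen, it was 0.60, and in the AT-2 marker groups it was 0.25.

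With libraries of 10 or more AT-2 cells (2 metastasis, 3 unchallenged lung), edgeR's quasi-likelihood test called 0 of 7719 genes (0%) at an adjusted p below 0.05, against 401 higher and 293 lower at an unadjusted p below 0.05 and 10 genes by DESeq2. Ager differed by 0.44 ± 0.70 (SE, log2) and Aqp5 by 0.56 ± 0.72 in that fit. Hopx was at a mean of 10.2 CPM in metastasis and 59.8 CPM in unchallenged lung, a log2 difference of -2.34 ± 0.70 with an edgeR adjusted p of 0.549, in a fit whose replicate 6 cells lay mostly outside the AT-2 marker groups. Rtkn2 and Pdpn were too low to be tested. Of the 16 other type 1 genes, 12 were tested and 0 passed, with a median log2 difference of 0.16 beside -0.03 over all genes tested.

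Cells rich in Ager and poor in Sftpc were few. Over all libraries, 323 cells had 3 or more Ager UMIs, of which 301 were in the AT-2 class, 274 had Sftpc at 5% of UMIs or more and 4 had 0 Sftpc UMIs. With 5 or more Ager UMIs the numbers were 195 cells, 187 in the AT-2 class, 179 at 5% or more and 2 without Sftpc. The other members behaved otherwise. Of 230 cells with 3 or more Aqp5 UMIs, 142 were in the AT-2 class, 92 had Sftpc below 1% and 38 had none. Of 669 cells with 5 or more Hopx UMIs, 0 were in the AT-2 class, and of 240 cells with 3 or more Pdpn UMIs, 0 were in it. Only 2 cells had 3 or more Rtkn2 UMIs.

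Of the 10 cells with 5 or more Ager UMIs and Sftpc below 1%, 5 also carried 1504 to 6524 UMIs of Scgb1a1 in droplets of 9514 to 12485 UMIs, well above the club cell median of 2118 UMIs. The remaining 5 lay in the AT-2 class (3 cells of metastasis TME replicate 5), the BEC class (1 cell) and the club class (1 cell). These were looked at after their values were known, as were the cells ranked next.

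When all cells were ranked by the share of their UMIs that the 5 members made up, 1 cell stood apart. It came from unchallenged lung replicate 4, lay in the club cluster and had 1203 UMIs, of which 3.57% were members, with 23 Ager, 11 Hopx, 5 Rtkn2 and 4 Aqp5 UMIs. It held 12 of the 17 type 1 markers, including 6 UMIs of Emp2 (a tetraspan membrane protein) and 5 each of Clic5 (an intracellular chloride channel protein) and Lmo7. It had 7 UMIs of Vegfa, the endothelial growth factor that type 1 cells also make, and 0 of Sftpc, Scgb1a1, Pecam1, Col1a1 and Ptprc. The next cell, in the BEC class of metastasis TME replicate 5, reached 2.45% with 20 Ager and 4 Aqp5 UMIs, but also 19 UMIs of the melanoma gene Dct and 18 of Scgb1a1. The cell at rank 3 was at 0.731% and held 725 Sftpc UMIs. The cell ranked first was not alone in its number of type 1 markers. In metastasis TME replicate 6, 12 of the 17 were also found in a single cell, as given below.

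Finding 3 or more members in a cell did not by itself mark a type 1 cell. Of 100359 cells, 1198 had 2 or more members, 112 had 3 or more, 7 had 4 and 0 had all 5. Of the 112, 54 were in the AT-2 class, 45 in the club class, 5 in RCC, 3 in BEC, 3 in fibroblasts and 2 in macrophages. Sftpc was absent from 22 of them, and 60 had more than 10 Sftpc UMIs. Their median depth was 5876 UMIs, so that deep cells were over-represented.

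The second clustering of the epithelial clusters gave 15 groups at a resolution of 0.5 and 23 at 1.5. At the lower resolution no group had more than 3 of the 17 type 1 markers raised. At the higher one, a single group of 63 cells had 6 raised, and the others had 3 at most. Its leading genes were Areg, Ccn1, Ccn2, Spp1, Clu, Gdf15, Sfn, Cldn4, Itgb6 and Krt18. Sfn, Cldn4, Areg and Krt18 belong to the list of the state between type 2 and type 1 cells, and Ccn1 and Ccn2 encode matrix-associated signal proteins.

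In that group Ager was at 481 CPM, Hopx at 119 CPM, Rtkn2 at 30.9 CPM, Aqp5 at 393 CPM, Pdpn at 26.5 CPM and Sftpc at 9770 CPM. It drew 34 cells from unchallenged lung replicate 6, 4 from replicate 5, 1 from replicate 4 (the cell described above), 8 each from metastasis TME replicates 5 and 6, and 8 from primary tumor TME. Of the 63 cells, 30 were in the AT-2 class, 27 had 2 or more members and 8 had 3 or more. Since clustering on the same genes made the group, no test was run on it, and it was left unnamed. Without the cell of replicate 4, Ager was at 382 CPM, Hopx at 71.0 CPM and Rtkn2 at 8.88 CPM, so that most of the Rtkn2 in the group came from that 1 cell. The 8 cells of metastasis TME replicate 5 held 53 of the 109 Ager and 1359 of the 2212 Sftpc UMIs, and without that library Ager was at 297 CPM and Sftpc at 4525 CPM. The primary tumor cells had 0 UMIs of either gene.

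BEC held 88.3%, 65.5% and 55.8% of the Hopx UMIs in unchallenged lung replicates 1, 4 and 5, but 7.35% in replicate 6, where RCC held 45.5% and macrophages 17.3%. In metastasis TME the BEC shares were 17.6%, 55.7%, 47.0% and 38.0% in replicates 1-3, 4, 5 and 6, and macrophages led in replicates 1-3 with 40.8%. Primary tumor TME had 386 and 469 Hopx UMIs in replicates 1-3 and 4, of which macrophages held 63.2% and 83.8%, and 6 and 18 UMIs in replicates 5 and 6, mostly in fibroblasts. The level in macrophages was between 15.6 and 104 CPM in the 10 unchallenged lung and TME libraries with 20 or more of them. In BEC cluster 18, led by Car4 and Ednrb, which mark capillary cells of the alveolus, it was at 1230, 1136, 1085 and 848 CPM in unchallenged lung replicates 1, 4, 5 and 6, and at 397 and 671 CPM in metastasis TME replicates 5 and 6. Both metastasis libraries lay below all 4 unchallenged lung libraries. In BEC cluster 6, the levels were 233, 214, 198 and 238 CPM in unchallenged lung and 102, 210, 67.3 and 51.3 CPM in metastasis TME replicates 1-3, 4, 5 and 6. Here metastasis TME replicate 4 lay within the range of unchallenged lung.

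In BEC cluster 13, led by venous genes such as Selp and Vwf, Hopx was at 38.7, 42.9, 39.8 and 87.8 CPM in unchallenged lung and 58.2, 11.6 and 12.8 CPM in metastasis TME replicates 4, 5 and 6. In primary tumor TME it was at 0, 0, 0 and 0.757 CPM, where the counts of 0 allow up to 13.8, 3.82 and 4.26 CPM in replicates 1-3, 4 and 5. The clusters were chosen for Hopx after their levels were seen, so that these are descriptions without a test, and cluster 18 itself had fewer than 20 cells in the other libraries.

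**Figure D3:**
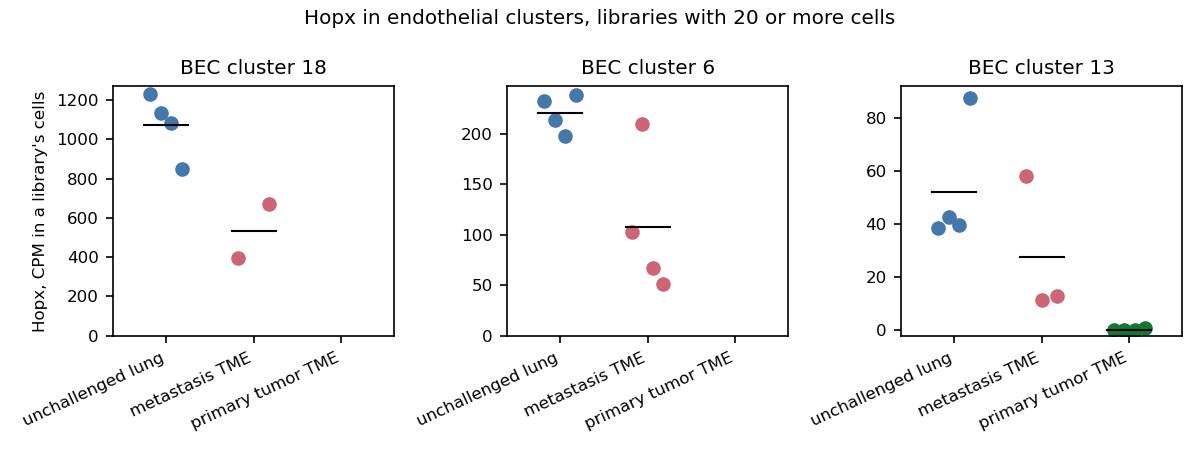
Hopx in CPM per library (points) with the mean of the libraries (bar) in BEC clusters 18, 6 and 13, linear axes. The 4 unchallenged lung points lie at 848 CPM or more in cluster 18 and at 198 CPM or more in cluster 6, and the primary tumor points of cluster 13 lie at or near 0.

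When BEC were divided by a UMI of Car4 or Ednrb, Hopx was higher in the cells with one in all 4 unchallenged lung and all 4 metastasis TME libraries. In those cells it was at 817, 606, 777 and 661 CPM in unchallenged lung replicates 1, 4, 5 and 6 and at 873, 873, 146 and 185 CPM in metastasis TME replicates 1-3 (16 cells), 4 (36 cells), 5 (408 cells) and 6 (61 cells). The first 2 of these metastasis libraries lay above, and the last 2 below, every unchallenged lung library. In primary tumor TME it was at 171 CPM in replicate 1-3 (13 cells) and 0 in the others. In RCC, Hopx was at 423, 322 and 199 CPM in unchallenged lung replicates 1, 5 and 6 and at 155 and 189 CPM in metastasis TME replicates 5 and 6. NK cells had between 117 and 191 CPM in 5 libraries, and B cells between 14.5 and 52.4 CPM in TME and lung libraries.

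Pdpn was a transcript of fibroblasts, lymphatic endothelium, basal airway and other club cluster cells, and macrophages. In fibroblasts it was at 21.1, 127 and 43.5 CPM in unchallenged lung replicates 4, 5 and 6, at 73.8 and 91.0 CPM in metastasis TME replicates 5 and 6, and at 81.8, 173 and 121 CPM in primary tumor TME replicates 4, 5 and 6. The 3 tissues overlapped. With fibroblasts thinned to 1000 UMIs, a Pdpn UMI was found in 5.71% and 8.16% of metastasis, 5.21%, 16.03% and 10.7% of primary tumor, and 0%, 13.1% and 3.75% of unchallenged lung fibroblasts, where 0 of 70 cells allows up to 4.29%.

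The designs were too small for a call, with a smallest possible p of 0.1 in the comparisons of metastasis with either tissue. Metastasis lay 3.72 percentage points below primary tumor (two-sided exact permutation test, p = 0.5) and 1.32 points above unchallenged lung (exact permutation p = 0.8). The test against primary tumor did not use the pairing of replicates 5 and 6 by mouse, and metastasis was the lower in both pairs. The direction against unchallenged lung turned to -1.48 without replicate 4 of that tissue, which also leaves run 3 alone. Against primary tumor it turned to 0.37 without thinning.

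Fibroblast counts were summed per library and fitted together for the 3 tissues, which tested 11123 genes, Hopx, Aqp5 and Pdpn among the members. Ager and Rtkn2 were too low to be tested, at 4.65 and 1.37 CPM over all fibroblasts. Between metastasis and primary tumor, edgeR called 122 genes (1.1%, with 0.917% higher and 0.18% lower in metastasis) at an adjusted p below 0.05 and 1 of the 3 members. Between metastasis and unchallenged lung it called 97 genes (0.872%, with 0.782% higher and 0.0899% lower) and 0 members. Between primary tumor and unchallenged lung it called 1359 genes (12.2%, with 5.21% higher and 7.01% lower in primary tumor) and 1 member. These comparisons share libraries.

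Aqp5 was the member called in fibroblasts of metastasis. It was at 58.8 and 24.5 CPM in metastasis TME replicates 5 and 6, against 0.889, 0 and 0.201 CPM in primary tumor TME replicates 4, 5 and 6 and 0, 0.992 and 9.49 CPM in unchallenged lung replicates 4, 5 and 6. Both metastasis libraries lay above all others. Its log2 difference from primary tumor was 6.88 ± 1.13 (SE), with an edgeR adjusted p of 0.0255, but the primary tumor libraries held 2 Aqp5 UMIs in all, so that the size is loosely set. Since metastasis and primary tumor replicates 5 and 6 came from the same mice by their library names, the fit with the replicate as a block is given too, with 6.85 and an edgeR adjusted p of 0.042. That block called 196 genes. Run 3 alone gave 7.59 (edgeR adjusted p = 0.0368), and DESeq2 gave 6.95 (adjusted p = 7.75e-05).

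The call needed every library of the comparison. It was lost without metastasis TME replicate 5 (edgeR adjusted p = 0.407) or 6 (0.146), and without primary tumor TME replicate 4 (0.0751), 5 (0.1) or 6 (0.169), while the log2 difference stayed between 5.82 and 7.56. Against unchallenged lung, Aqp5 differed by 3.12 ± 0.83 (edgeR adjusted p = 0.104), and by 5.82 (0.0217) without replicate 6 of that tissue.

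Sftpc and a keratin gene were called beside Aqp5. Sftpc was higher in the same comparison by 7.12 ± 1.33 (edgeR adjusted p = 0.0421), at a mean of 351 CPM in metastasis against 1.54 CPM in primary tumor fibroblasts, and all 6 tested AT-2 genes were higher at an unadjusted p below 0.05, with Sftpc the 1 that passed, beside 6.46% of all genes tested that were higher at that unadjusted p. The simple keratin Krt18 was higher by 4.47 ± 0.79 (edgeR adjusted p = 0.0367). It was the 1 called of 5 tested genes of the state between type 2 and type 1 cells. At an unadjusted p below 0.05, 2 of the 5 were higher and 1 was lower. Their median log2 difference was 0.44, beside 0.02 over all genes tested. Within metastasis fibroblasts, Aqp5 was at 119 CPM in 104 cells with 2 or more of the mesothelial markers Msln, Upk3b, Wt1, Lrrn4 and Calca and at 25.4 CPM in 397 cells without. By library it was 135 against 29.9 CPM in replicate 5 and 58.8 against 0 CPM in replicate 6. Unchallenged lung fibroblasts did not show this split, with 8.49 CPM of Aqp5 in 41 cells with the markers (1 UMI) and 7.26 CPM in 2369 cells without. The part of mesothelial cells and of free epithelial RNA in the difference was not tested.

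**Figure D4:**
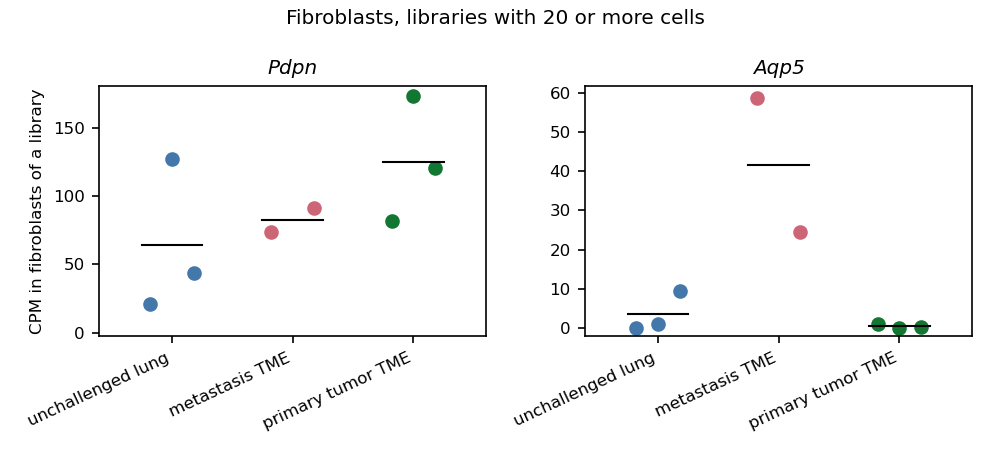
Pdpn and Aqp5 in CPM per library (points) with the mean of the libraries (bar) in fibroblasts, for libraries with 20 or more fibroblasts, linear axes. Pdpn overlaps between the 3 tissues, while the Aqp5 points of metastasis TME (24.5 and 58.8 CPM) lie above the other 6.

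Hopx was lower in fibroblasts of primary tumor than of unchallenged lung. It was at 16.9, 6.75 and 3.42 CPM in primary tumor TME replicates 4, 5 and 6 and at 54.2, 19.8 and 85.1 CPM in unchallenged lung replicates 4, 5 and 6. The nearest libraries of the groups were at 16.9 and 19.8 CPM, and the share of all genes tested whose libraries did not overlap was not counted. The log2 difference was -2.61 ± 0.67 with an edgeR adjusted p of 0.0342, and -3.55 (0.0253) in run 3 alone. With 1 library left out at a time, it stayed between -3.52 and -1.96. The call was lost without unchallenged lung replicate 4 (edgeR adjusted p = 0.054) or 6 (0.0957), metastasis TME replicate 5 (0.0722) or 6 (0.0718), and primary tumor TME replicate 5 (0.118) or 6 (0.126).

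In the same comparison, all 6 tested AT-2 genes were called lower, Sftpc by 7.16 on the log2 scale (edgeR adjusted p = 0.0101). The part of transcripts from other lung cells in the Hopx difference was not tested. Of the 10 other type 1 genes tested, 0 were called higher and 3 lower. Over all genes tested, 5.21% were called higher and 7.01% lower. The 3 were Spock2, a matrix proteoglycan (fell by 4.98, edgeR adjusted p = 0.00176), Clic5 (fell by 6.39, edgeR adjusted p = 0.0133) and Clic3. Clic3, a chloride channel protein, was listed at 0 in primary tumor fibroblasts (edgeR adjusted p = 0.0436). Pdpn differed by 0.97 ± 0.57 and was not called (edgeR adjusted p = 0.306), but was at 1.94 (0.0316) without unchallenged lung replicate 5. Aqp5 differed by -3.76 ± 1.17 (edgeR adjusted p = 0.0675), passed without unchallenged lung replicate 4 (0.0465) or 5 (0.0434), and was -1.06 (0.731) without replicate 6.

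Against unchallenged lung, metastasis fibroblasts had Hopx lower by 2.45 ± 0.82 on the log2 scale, an estimate that did not pass (edgeR adjusted p = 0.161). Between metastasis and primary tumor the Hopx difference was 0.16 ± 0.85 and that of Pdpn -0.65 ± 0.65 (edgeR adjusted p = 0.993 and 0.87). Of the 10 other type 1 genes tested, 0 were called in either comparison, at a median log2 difference of 2.14 against primary tumor and -0.47 against unchallenged lung, beside 0.02 and -0.03 over all genes.

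Cells with mesothelial, lymphatic or basal markers mostly had more CPM of Pdpn than the rest of their classes. Fibroblasts with 2 or more mesothelial markers had 288 CPM of Pdpn in unchallenged lung replicate 5 (7 cells, against 122 CPM without) and 207 CPM in replicate 6 (33 cells, against 40.0 CPM). In metastasis TME replicates 5 and 6 they had 167 CPM (86 cells, against 38.3 CPM) and 109 CPM (17 cells, against 77.9 CPM). BEC with a UMI of Prox1, the factor that sets lymphatic identity, had 449, 245, 274 and 179 CPM of Pdpn in primary tumor TME replicates 1-3, 4, 5 and 6 (10 to 28 cells each), against 0, 5.49, 3.91 and 20.8 CPM in those without. In metastasis TME they had 135 CPM in replicate 5 (13 cells) and 62.4 CPM in replicate 6 (11 cells), against 1.79 and 5.93 CPM. Unchallenged lung had 5 such cells, with 4 Pdpn UMIs in the 3 cells of replicate 4 and 0 in the 2 cells of replicate 5. Club cluster cells with 2 or more basal markers (Krt5, Krt14, Trp63, Krt15) had 377 CPM of Pdpn in unchallenged lung replicate 5 (10 cells, against 48.8 CPM in the other club cells) and 388 CPM in replicate 6 (27 cells, against 54.6 CPM). They also held more Aqp5, 467 against 146 CPM in replicate 5 and 693 against 120 CPM in replicate 6. Over unchallenged lung, club cluster cells with 2 or more basal markers held 54 Pdpn UMIs and the other club cluster cells 203.

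In macrophage cluster 5, led by C1qb, C1qc and C1qa, Pdpn was at 0, 4.95, 7.73 and 12.9 CPM in unchallenged lung replicates 1, 4, 5 and 6. It was at 47.5, 50.1, 0 and 56.6 CPM in metastasis TME replicates 1-3, 4, 5 and 6, and at 57.5 and 43.7 CPM in primary tumor TME replicates 1-3 and 4. The tumor libraries lay above the unchallenged ones except metastasis TME replicate 5, where 32 cells with 0 UMIs allow up to 17.2 CPM. This cluster was chosen after its values were seen and has no test.

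Rtkn2 was near the limit of detection in every host library. Over all cells of a library it was at 0, 0.549, 0.587 and 0.561 CPM in unchallenged lung replicates 1, 4, 5 and 6, where 0 UMIs in replicate 1 allow up to 0.487 CPM. It was at 0.569, 0.727, 1.34 and 0.847 CPM in metastasis TME and 0, 0.967, 2.25 and 2.06 CPM in primary tumor TME. The MM libraries had 1.72 and 1.69 CPM in metastasis and 3.70 and 4.90 CPM in primary tumor, above every unchallenged lung library. A UMI was found in 580 cells in all, of which 525 had no Sftpc UMI.

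Summed over all cells, none of the 4 members tested passed the test between metastasis TME and unchallenged lung. In such sums, fewer cells of a type and less RNA per cell cannot be told apart. The edgeR fit over the 12 TME and unchallenged lung libraries called 54 of 14399 genes (0.375%, of which 0.361% higher and 0.0139% lower in metastasis), and 0 of the 4 members. Rtkn2 was too low to be tested. Ager was at 27.9, 4.35, 48.4 and 19.0 CPM in unchallenged lung replicates 1, 4, 5 and 6 and at 21.1, 4.00, 28.1 and 15.5 CPM in metastasis TME replicates 1-3, 4, 5 and 6, a log2 difference of -0.43 ± 0.73 (edgeR adjusted p = 0.879). Metastasis was the lower in each of replicates 4, 5 and 6, and the difference with the replicate number as a block was -0.37 (edgeR adjusted p = 0.749). By their library names these pairs are of different mice (14 and 15, 17 and 19, 18 and 20). The deviations of the same-numbered libraries correlated at 0.70, 0.17 and 0.40. Pairs with unlike numbers ran from -0.57 for metastasis replicate 6 and unchallenged lung replicate 4 to 0.55 for metastasis replicate 6 and unchallenged lung replicate 5. The pairs of a run 2 with a run 3 library all lay between -0.57 and -0.30, and the part of the run was not tested. Metastasis replicate 5 and unchallenged lung replicate 1 were at 0.17. In both tissues replicate 4, the library of run 2, was the lowest, and it had 9 AT-2 cells in unchallenged lung and 0 in metastasis. In primary tumor TME Ager was at 1.81, 0.796, 0.563 and 3.68 CPM, below all lung libraries.

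Hopx was at 278, 183, 171 and 123 CPM in unchallenged lung and 72.5, 159, 18.3 and 39.0 CPM in metastasis TME, overlapping in replicate 4. The log2 difference of -1.37 ± 1.01 was not called (edgeR adjusted p = 0.692), but in run 3 alone it was -2.44 (edgeR adjusted p = 0.0218). With the replicate number as a block, the difference was -2.20 (edgeR adjusted p = 0.285), and Hopx was lower in metastasis in each of replicates 4, 5 and 6. The share of cells in BEC cluster 18 was 12.2%, 4.16%, 7.74% and 0.720% in unchallenged lung and 1.15%, 1.51%, 3.72% and 2.32% in metastasis TME, and its part in the difference was not tested.

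Aqp5 was at 11.7, 0.849, 20.5 and 18.5 CPM in unchallenged lung and 9.96, 0, 19.9 and 39.0 CPM in metastasis TME, a log2 difference of 0.45 ± 1.33 (edgeR adjusted p = 0.933). Pdpn was at 3.73, 1.15, 8.03 and 12.8 CPM and at 21.1, 4.00, 6.47 and 22.9 CPM, a difference of 1.12 ± 0.70 (edgeR adjusted p = 0.626). The groups overlapped for both. Primary tumor TME had 51.5, 39.7, 103 and 97.8 CPM of Pdpn, above all other libraries. Fibroblasts made up 2.54%, 6.15%, 45.2% and 86.1% of the cells of these libraries. Macrophages held 160 of 199 Pdpn UMIs in replicates 1-3 and 580 of 698 in replicate 4, while fibroblasts held 128 of 183 in replicate 5 and 599 of 664 in replicate 6.

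**Figure D5:**
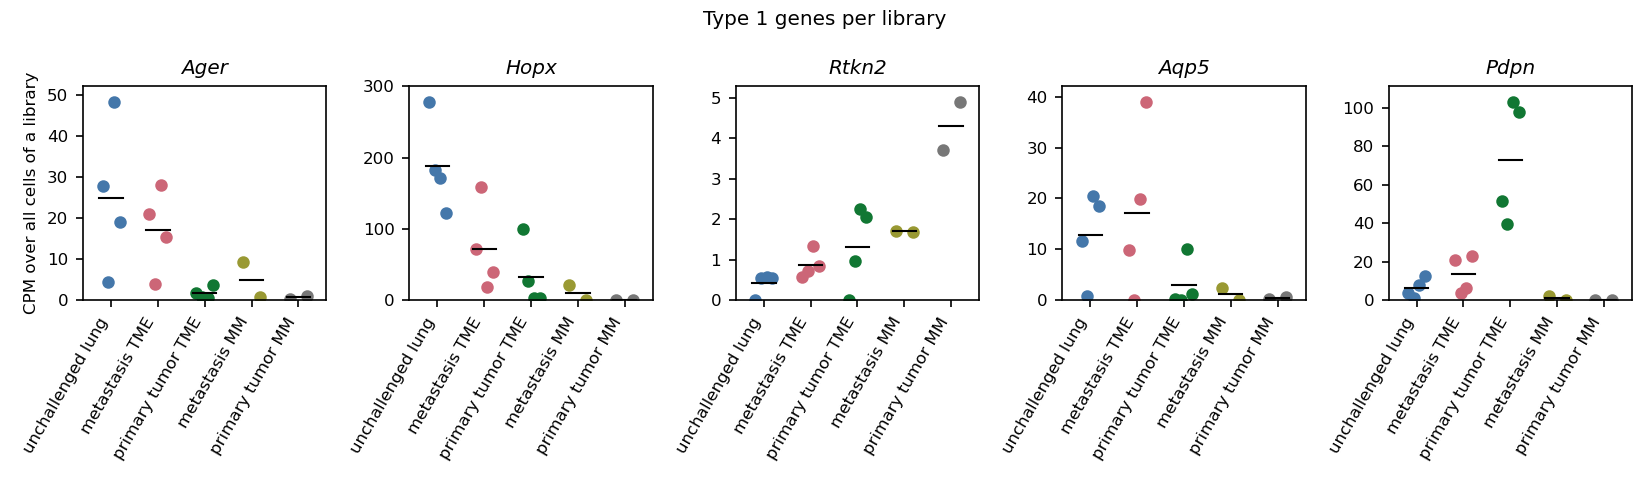
CPM of the 5 genes over all cells of each of the 16 libraries (points) with the mean of each group (bar), linear axes from 0. The highest points of Ager, Hopx and Aqp5 belong to unchallenged lung or metastasis TME, those of Pdpn to primary tumor TME (39.7 to 103 CPM), and those of Rtkn2 to the primary tumor MM libraries (3.70 and 4.90 CPM).

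The 16 other type 1 genes of a longer list gave no call either. Of the 15 tested over all cells, 0 passed in either direction, and their median log2 difference between metastasis and unchallenged lung was -1.04 beside -0.02 over all genes tested. The 3 with the highest level in AT-2 cells of unchallenged lung were Cldn18, a tight junction protein (520 CPM), Emp2 (290 CPM) and Lmo7 (174 CPM). Emp2 was at a mean of 73.8 CPM in metastasis TME and 330 CPM in unchallenged lung, a log2 difference of -2.13 ± 0.65 that did not pass (edgeR adjusted p = 0.232).

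By cluster, Cldn18, Col4a3 and Col4a4, the latter encoding basement membrane collagen chains, were highest in the AT-2 cluster. Emp2 (3546 CPM), Clic5 (1308 CPM), Lmo7 (437 CPM) and Gprc5a (77.2 CPM) were highest in BEC cluster 18, the cluster in which Hopx peaked. Clic3, Cyp2b10, Gramd2, Igfbp2 and Scnn1a, a subunit of the epithelial sodium channel, were highest in RCC cluster 20, and Krt7 in the club cluster. Clic3 came second in the AT-2 cluster, at 98.7 CPM.

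Of the 7 genes of the state between type 2 and type 1 cells (Krt8, Krt18, Cldn4, Sfn, Lgals3, Cdkn1a and Areg), 0 peaked in the AT-2 cluster. Krt8 was at 185 CPM in AT-2 cells, and at 174 CPM in the richest and 153 CPM in the poorest Sftpc range of unchallenged lung replicate 6. In the 14 AT-2 cells of metastasis TME replicate 5 with Sftpc below 1%, Krt8 was at 651 CPM, Cldn4 at 138 CPM and Sfn at 257 CPM, against 189, 0 and 23.9 CPM in the 114 cells of the richest range. In the 7 such cells of unchallenged lung replicate 5 these genes were at 200, 0 and 80.1 CPM, against 162, 0 and 23.9 CPM in the 165 richest. Areg, Lgals3 and Cdkn1a were at 681, 601 and 200 CPM in those 7 cells, against 16.2, 42.6 and 18.8 CPM. Over all cells, 6 of the 7 genes were tested between metastasis and unchallenged lung and 0 passed.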

How the data were processed

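Single cells of sorted mouse lung, lung metastasis and primary tumor tissue were sequenced from the 3′ end with 10x Genomics chemistry. The deposited values were raw UMI counts per gene and cell, which the authors made with Cell Ranger 6.1.1 on GRCm38 and filtered in Seurat 3.2.2 by quantiles of detected genes and of ribosomal and mitochondrial reads. The percent of mitochondrial UMIs per cell was also deposited as the authors computed it. The normalised matrix was not used. The filters removed the cells with the most and fewest genes, which can remove large or fragile cells before any count is made.

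Of 24 library names, 5 repeated the barcodes and counts of another and were counted once (9924 barcodes), and 2 of these names matched no sample. Totals of all 110283 barcodes equalled the deposited ones. The names give metastasis and primary tumor TME replicates 5 and 6 the same mice (17 and 18), but the same counts were also filed under mice 21 and 22. Metastasis TME replicate 6 was further filed under a name for melanoma cells. Replicates are libraries, and p-values measure the spread between libraries.

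Cells were clustered in Seurat 5.3.0 (R 4.3.3) on 2000 variable genes, 17 principal components, 20 neighbors and resolution 0.5. A cluster was named where at least 3 markers and over 50% of a list were raised, by a log2 fold above 1 over the other cells and in 10% or more of its cells. Where several lists passed, the markers among the 10 leading genes decided. A cluster was also named melanoma where that list ranked first with at least 3 markers and over 50% of its cells came from MM libraries. Other clusters under 50 cells were left unnamed. Epithelial clusters were clustered again with 12 components. No doublet caller was run. Counts were summed per library and class (20 cells or more) and tested with edgeR 4.0.16 (TMM, quasi-likelihood, Benjamini-Hochberg adjusted p below 0.05). The 12 TME and unchallenged lung libraries entered the fit over all cells, and fibroblasts of the 3 tissues shared 1 fit. Shares of cells used cells thinned to 1000 UMIs and exact permutation tests (two-sided) over libraries. A count of 0 was taken to allow up to 3 counts, and exact 95% intervals and these limits cover counting error only. In simulated counts with known changes, the fit over all cells recovered 31.3% of genes changed by a log2 of 2 and 75.8% of those changed by 4, and the fibroblast fit of metastasis against primary tumor 13.4% and 81.8%. Of genes changed by a log2 of 1, the fit over all cells recovered 1.49% and the fibroblast fits of metastasis against either tissue 0%. A member difference of that size that was not called is therefore not shown to be absent.

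The 5 members were always named. Of 16 other type 1 genes, the 3 highest in AT-2 cells of unchallenged lung and those that passed a test were named, and for likeness the 3 genes of highest Pearson r. The members and lists were chosen with earlier results of these data known. DESeq2 1.42.0, other size factors, no filter on low counts, each library left out, the replicate as a block, run 3 alone, 10 cells per library, other clusterings and other thinning depths were tried. For metastasis against primary tumor the pairing comes from the library names. Deviations of same-numbered fibroblast libraries correlated at -0.12 and -0.06 there. Over all cells, those of metastasis and unchallenged lung replicates 4, 5 and 6, of different mice by name, correlated at 0.70, 0.17 and 0.40. Scipy 1.17.1 and numpy 2.4.6 (Python 3.11.15) were used for the rest.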

Additional observations from a re-analysis of the deposited data

Results flagged for a closer look

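In 24 groups of 4 libraries looked at, 5 had a library that stood apart from the other 3. The rule flags about 1 in 20 groups of normally distributed values. That rate does not hold for counts at or near 0, nor for clusters chosen after their values were seen. The number flagged can therefore not be set against chance. Rtkn2 over all cells was 0 CPM in unchallenged lung replicate 1, against 0.549 to 0.587 CPM in the others. Aqp5 over all cells was 10.1 CPM in primary tumor TME replicate 5, against 1.18 CPM or less in the other primary tumor libraries. Hopx in BEC cluster 13 was 87.8 CPM in unchallenged lung replicate 6, against 38.7 to 42.9 CPM. In primary tumor TME it was 0.757 CPM in replicate 6, from 1 UMI, against 0 in the others. Pdpn in macrophage cluster 5 was 0 CPM in metastasis TME replicate 5, against 47.5 to 56.6 CPM.

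Rtkn2 was also found in the MM libraries, which no comparison used, at 1.72 CPM in metastasis replicate 4, 1.69 CPM in metastasis replicate 5, 3.70 CPM in primary tumor replicate 4 and 4.90 CPM in primary tumor replicate 5, all above the highest unchallenged lung library at 0.587 CPM.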

How the results depend on the processing

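AT-2 cells in numbers came from 3 libraries of 1 run, and fibroblasts of metastasis from 2, so that most calls rest on single libraries. Low UMI counts limit Rtkn2 everywhere and Pdpn in AT-2 cells. For the numbers of genes called and the values of the comparisons, 60 alternative settings left the result on its side, 41 moved it and 4 turned its direction. For single members, 201 left it, 11 lost a call, 8 gained one and 8 turned the direction. The permutation comparisons had smallest possible exact permutation p-values of 0.1 and 0.333, so that a call was out of reach in their main designs. The AT-2 value of Ager counted as unmoved within the SD of the unchallenged lungs (1.52). The 60 settings are therefore no measure of stability. The cause of each change was not tested, beyond the fewer libraries or genes that a setting itself leaves.

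DESeq2 called 489 genes over all cells (54 with edgeR), 320 in fibroblasts between metastasis and primary tumor (122), 530 between metastasis and unchallenged lung (97, with 318 higher and 212 lower) and 10 in the AT-2 class (0). With no filter on low counts, the fibroblast comparisons gave 356, 721 and, for primary tumor against unchallenged lung, 2447 genes, and the AT-2 class 363. Run 3 alone gave 1407 genes over all cells and, in fibroblasts, 55 for metastasis and 902 for primary tumor against unchallenged lung. With 10 cells per library, 195 and 57 genes were called for metastasis against primary tumor and unchallenged lung, and Hopx between metastasis and primary tumor turned to -0.26.

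Leaving out 1 library at a time gave 0 to 233 genes over all cells, 2 to 359 in fibroblasts between metastasis and primary tumor, 6 to 303 between metastasis and unchallenged lung, 397 to 1319 between primary tumor and unchallenged lung, and 0 to 37 in the AT-2 class. Where an arm was left with 1 library, it was assumed to vary like the others. The AT-2 value of Ager ranged from 0.25 to 2.41, and was 0.60 in cells at 5% Sftpc or more and 0.25 in the AT-2 marker groups, settings added after the data were seen. With 10 AT-2 cells per library, also added then, the share with 2 or more members differed by 7.14 points. The tested log2 differences ranged from -0.80 to 0.12 for Ager and -0.20 to 0.85 for Aqp5 over all cells, from -0.40 to 1.06 for Hopx in fibroblasts between metastasis and primary tumor, and from -0.068 to 1.31 for Pdpn between metastasis and unchallenged lung, which was -0.071 in run 3 alone. In the AT-2 class Ager ranged from -0.079 to 0.77 and Aqp5 from -0.038 to 0.96. The share of fibroblasts with Pdpn differed by -6.45 to -1.03 points from primary tumor and by -1.48 to 5.07 points from unchallenged lung. Without thinning the first was 0.37, and the second was -0.65 at 500 UMIs and -1.48 in run 3 alone.

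With the replicate number as a block, 79 genes were called over all cells, 196 in fibroblasts between metastasis and primary tumor, 104 between metastasis and unchallenged lung and 1409 between primary tumor and unchallenged lung. The block changed no call of a member. In the last 2 fibroblast comparisons the samples share only a number, with correlations of 0.07 and 0.09, and of 0.01, 0.20 and 0.11. The block and run 3 alone could not be fitted for the AT-2 class.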
